A study of Mus musculus with 18 samples.

Results

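Long interspersed element 1 (L1) repeats are retrotransposons that copy themselves through an RNA intermediate. A full-length L1 encodes an RNA-binding protein, ORF1p, and an endonuclease and reverse transcriptase, ORF2p, and the same machinery also copies short elements such as B1 and B2. In the mouse the A, Tf and Gf families still hold copies able to move, while the F, Fanc, V and N families are older lineages told apart by the promoter sequence at their start, and within a family the member numbered I is the youngest. The young mouse L1 rows described here are the 30 repeat subfamilies, of 1365 in all, that have the class LINE/L1 and a name beginning with L1Md or L1_. They comprise 7 A, 3 Tf, 2 Gf, 5 F, 2 Fanc, 3 V, 1 N, 3 Mus and 3 Mur subfamilies and L1_Rod. They were picked by class and name, under a rule set with earlier results of these data known. The names Mur (murine) and Rod (rodent) mark lineages older than the active families. The word "young" thus holds for the set only in comparison with the remaining 120 L1 rows.

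The series holds poly(A) RNA-seq of 18 mouse libraries, 3 in each of 6 groups. Embryonic stem cells (ESCs, 129S1/CASTEiJ background, cultured in 2i), macrophages from bone marrow (BALBC/C57BL6 background, derived with M-CSF) and neuronal progenitor cells (NPCs, 129S1/CASTEiJ background, grown with EGF and FGF) were each left untreated or given NVP-AUY922, which inhibits HSP90, a chaperone that helps other proteins to fold. The ESCs received 100 nM, the macrophages 500 nM and the NPCs 50 nM, each for 24 h, so dose and cell type, and in macrophages also strain, cannot be told apart. The study asked how HSP90 affects endogenous retroviruses in mammalian cells, and its repeat tables cover the L1 elements as well.

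For each cell type the authors' deposited table gives a base mean (the mean of normalised reads over the libraries of that cell type) and a log2 fold change between treated and untreated cells for each subfamily. A subfamily sums all its genomic copies. Values for each library are not analysed here, so the spread between libraries enters only through the standard error (SE) of the log2 fold change, which follows each ± sign. It is not stated in the tables whether treated or untreated cells are the numerator. Subfamilies are therefore said to be positive or negative in the contrast, without a claim that their RNA was higher or lower after treatment. The tables hold repeats and no genes, so the labelled cell types were not checked against marker genes here, and fewer cells of a type cannot be told apart from less RNA per cell. All 30 subfamilies were tested in all 3 tables.

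The make-up of the young L1 reads differed between the cell types, with the widest spread in the Tf rows. In ESCs the authors' deposited table gave base means of 74915 for L1MdTf_I, 78183 for L1MdTf_II and 85924 for L1MdTf_III, so that the 3 Tf rows were close to one another. In macrophages the same rows stood at 1917, 2330 and 50522 in the authors' deposited table. In NPCs they stood at 1122, 1279 and 51833 in the authors' deposited table. L1MdTf_III thus had 1.15 times the base mean of L1MdTf_I in ESCs, 26.4 times in macrophages and 46.2 times in NPCs. These are ratios of means over treated and untreated libraries within a table. Length and copy number are common to the ratio in each table, apart from strain differences, and no library spread is available for a test.

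As a share of the summed base mean of the 30 rows, L1MdTf_I took 14.5% in ESCs, 1.36% in macrophages and 0.881% in NPCs. L1MdTf_II took 15.1%, 1.66% and 1.0%, in the same order. L1MdTf_III took 16.6%, 35.9% and 40.7%, and it ranked 8th, 7th and 8th among all 1365 repeat rows by base mean. The Tf family as a whole took 46.2%, 38.9% and 42.6% of the young L1 reads, so its total varied far less between the tables than its members did. L1MdFanc_I was the next most abundant row in macrophages and NPCs, with 9.08% and 9.30% of the reads, against 5.28% in ESCs. The A family took 16.3%, 14.5% and 11.4%. All 30 rows together made up 13.5% of the summed base mean of all repeats in ESCs, 7.07% in macrophages and 6.11% in NPCs. The sources used here do not give how reads fitting several near-identical copies were assigned, and reads of gene transcripts that hold an L1 copy can enter a row; their part in these shares was not tested.

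**Figure D1:**
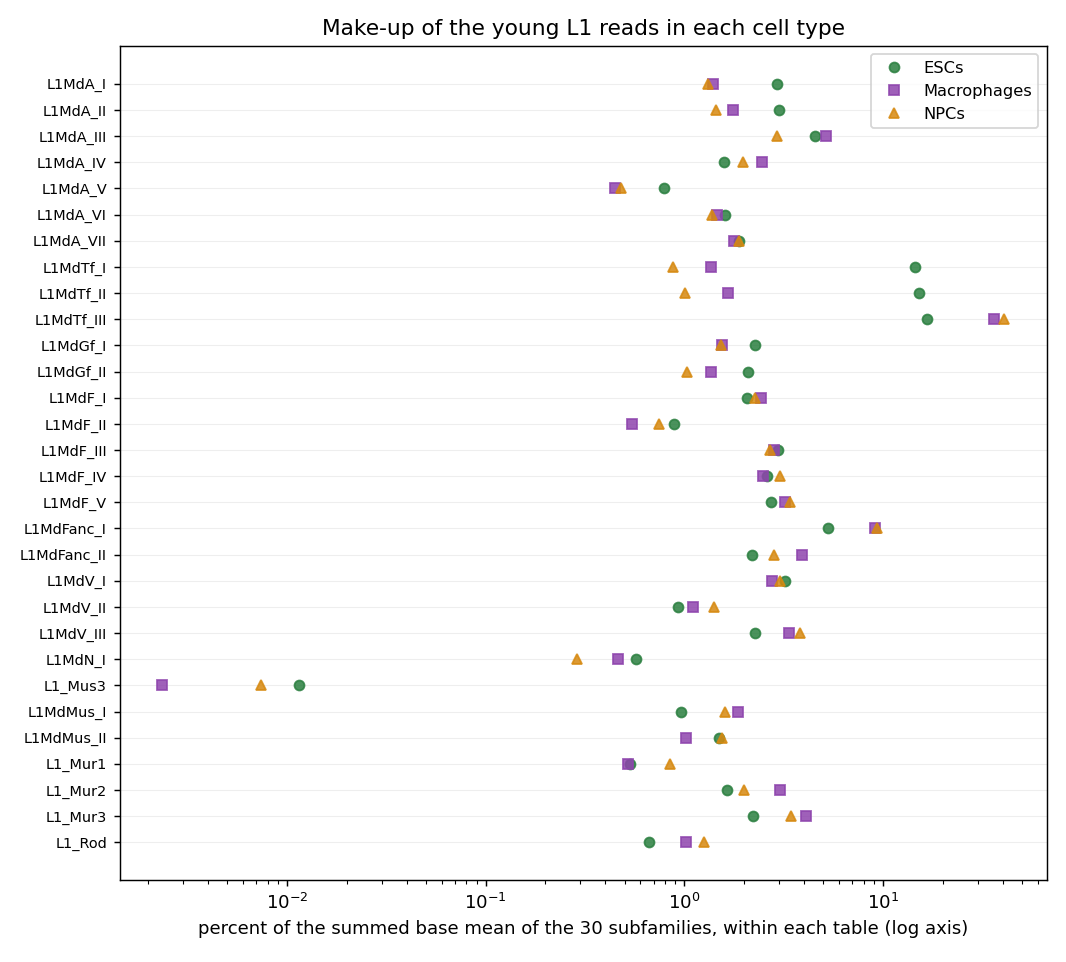
Share of the summed base mean of the 30 young L1 rows (percent, log axis) taken by each subfamily in ESCs (circles), macrophages (squares) and NPCs (triangles). L1MdTf_I and L1MdTf_II lie at 14.5% and 15.1% in ESCs and at most at 1.66% in the other cell types, whereas L1MdTf_III lies at 16.6%, 35.9% and 40.7%.

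In ESCs 9 of the 30 young L1 rows passed an adjusted p of 0.05, with 2 on the positive and 7 on the negative side, and 12 had an unadjusted p under 0.05. Of all 1132 repeats tested in ESCs 22.2% passed, 10.2% on the positive and 12% on the negative side. An unadjusted p under 0.05 was found for 353 of the 1132. The young L1 values were small. They ran from -0.55 to 0.21 on the log2 scale, with a median of -0.04 beside 0.0019 over all tested rows, and their median absolute value was 0.12 beside 0.18.

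In ESCs the active families held calls on both sides, and the positive call, that of L1MdGf_I, did not pass at 0.01. Differences between families were not tested. The authors' deposited table put L1MdTf_I and L1MdTf_II on the negative side at -0.25 ± 0.07 each (adjusted p 0.00512 and 0.00424). These are differences of 1.19-fold each between the groups. L1MdTf_III, which the authors' deposited table gives as -0.06 ± 0.07, did not pass (adjusted p 0.661). On the other side the authors' deposited table had L1MdGf_I at 0.19 ± 0.06 (1.14-fold, adjusted p 0.0187), while L1MdGf_II did not pass at 0.04 ± 0.07. None of the 7 A rows passed by the adjusted p of the authors' deposited table, and 2 had an unadjusted p under 0.05. The closest was L1MdA_I, which the authors' deposited table gives as 0.17 ± 0.07 with an adjusted p just above the threshold, 0.0519. Its neighbours L1MdA_II and L1MdA_III had 0.13 ± 0.07 and 0.10 ± 0.07 there, and the authors' deposited table had L1MdA_IV to L1MdA_VII between -0.16 and 0.05.

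Among the older lineages in ESCs, both Fanc rows were on the negative side. With a base mean of 27338, L1MdFanc_I had a log2 fold change of -0.55 ± 0.07 (1.46-fold, adjusted p 3.32e-13), as the authors' deposited table gives it. By its Wald statistic, the log2 fold change over its SE, it ranked 34th of 1132 tested rows. Its sister row L1MdFanc_II followed in the authors' deposited table at -0.36 ± 0.07 (1.28-fold, adjusted p 1.82e-06). The F family had its one call on the other side: the authors' deposited table put L1MdF_I at 0.21 ± 0.07 (adjusted p 0.0197), and L1MdF_II to L1MdF_V lay between -0.04 and 0.08 and did not pass. For the V family the authors' deposited table had L1MdV_I at -0.21 ± 0.06 (adjusted p 0.00552) and L1MdV_III at -0.26 ± 0.06 (adjusted p 3.92e-04), and L1MdV_II at 0.06 ± 0.08 did not pass. The N family row, L1MdN_I, was called in the authors' deposited table at -0.27 ± 0.07 (adjusted p 9.86e-04). None of the Mus, Mur and Rod rows passed, and of these L1_Mur1 had an unadjusted p under 0.05; L1MdMus_I lay at 0.0019 ± 0.083 and L1_Mur1 at -0.18 ± 0.08 in the authors' deposited table. Weighted by base mean, the mean log2 fold change of the 30 rows was -0.11, beside -0.25 over all tested repeats. By family this mean was -0.18 for Tf, -0.49 for Fanc, 0.06 for A and 0.12 for Gf.

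**Figure D2:**
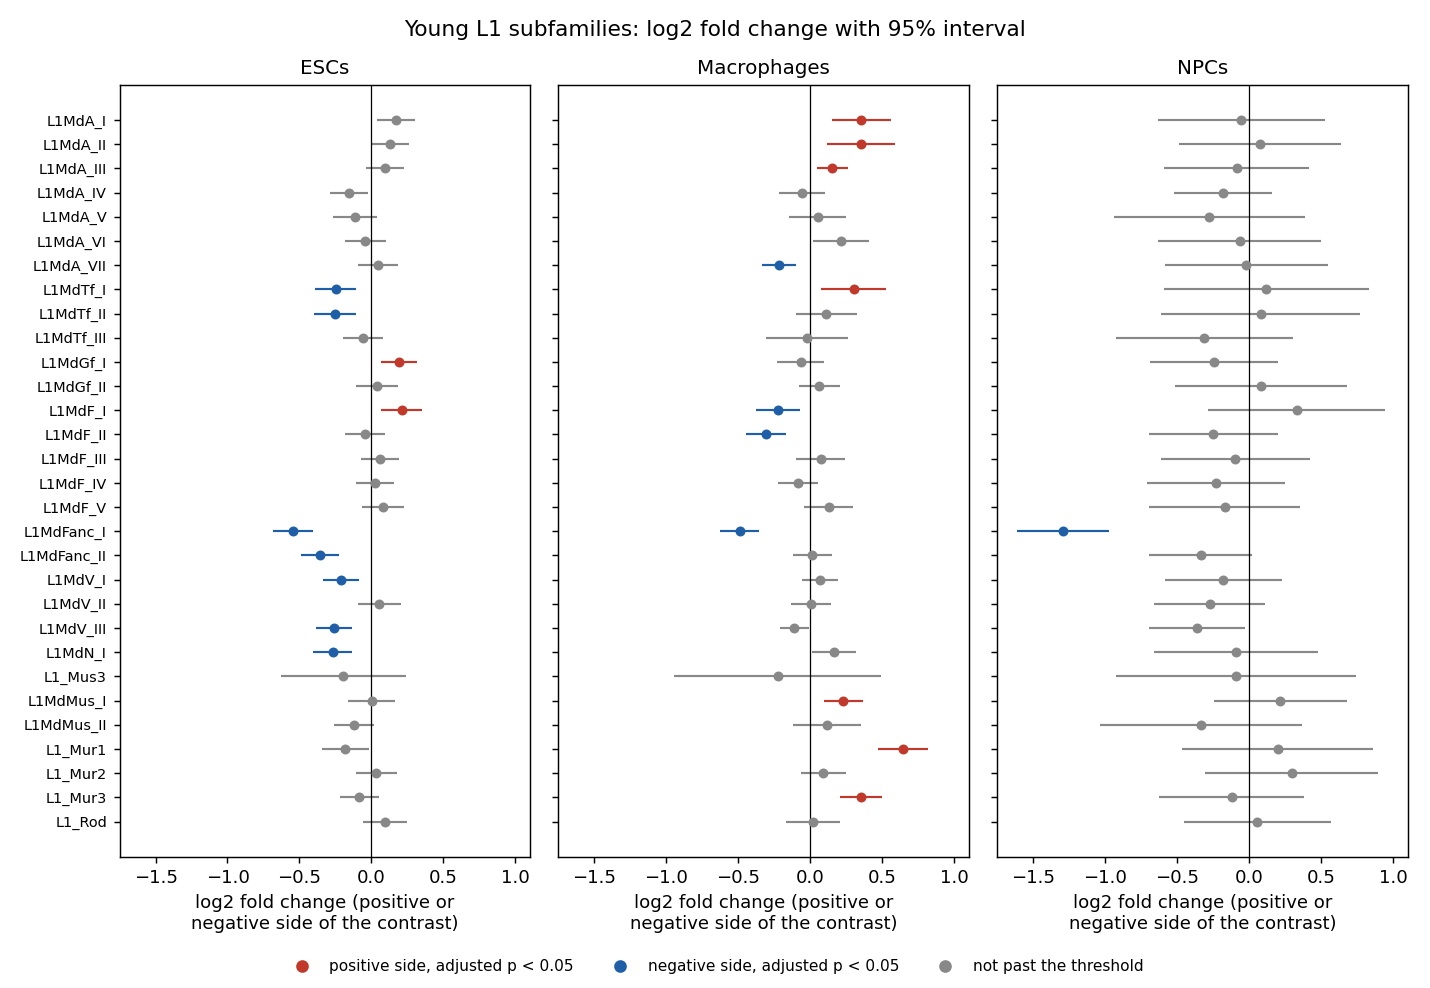
Log2 fold change of each young L1 subfamily in the authors' deposited table for ESCs, macrophages and NPCs (x axis, positive or negative side of the contrast), with bars for the 95% interval from the SE. Red and blue points passed an adjusted p of 0.05 on the positive and negative side; L1MdFanc_I is the row called on the negative side in all 3 panels, at -0.55, -0.49 and -1.29.

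In macrophages 11 of the 30 rows passed, 7 on the positive and 4 on the negative side, and 14 had an unadjusted p under 0.05. Of all 1255 repeats tested there 25.8% passed, 13.3% on the positive and 12.5% on the negative side. An unadjusted p under 0.05 was found for 436 of the 1255. The young L1 values ran from -0.49 to 0.65, with a median of 0.06 beside -0.01 over all tested rows. With the rows weighted by base mean the mean was -0.0079, beside -0.06 over all tested rows. L1MdTf_III, which did not pass, carried 35.9% of the weight in the young L1 mean. The shift from the median to this mean was within the median SE of the 30 rows, 0.08.

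The A rows numbered I to III and L1MdTf_I were on the positive side in macrophages, and of these only L1MdA_I also passed at 0.01. The authors' deposited table put both L1MdA_I and L1MdA_II at 0.35, a 1.28-fold difference each, with SE of 0.11 and 0.12 (adjusted p 0.00499 and 0.0168). Next in the authors' deposited table was L1MdA_III at 0.15 ± 0.06 (adjusted p 0.0268). L1MdA_IV, L1MdA_V and L1MdA_VI did not pass at -0.06 ± 0.08, 0.05 ± 0.10 and 0.21 ± 0.10 there. The A row called on the negative side was L1MdA_VII, which the authors' deposited table had at -0.22 ± 0.06 (adjusted p 0.00191). L1MdTf_I lay at 0.30 ± 0.12 (1.23-fold, adjusted p 0.0378) in the authors' deposited table. L1MdTf_II at 0.11 ± 0.11 and the abundant L1MdTf_III at -0.02 ± 0.14 did not pass in the authors' deposited table. Neither Gf row passed, with or without adjustment of p, with L1MdGf_I at -0.07 ± 0.08 and L1MdGf_II at 0.06 ± 0.07 in the authors' deposited table.

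Among the older lineages in macrophages, L1_Mur1 and, close to L1MdA_I and L1MdA_II, L1_Mur3 had the farthest positive values and L1MdFanc_I the farthest negative one. L1_Mur1, with a base mean of 733, was given by the authors' deposited table as 0.65 ± 0.09 (1.56-fold, adjusted p 9.74e-12). L1_Mur3 lay at 0.35 ± 0.08 (adjusted p 3.11e-05) and L1_Mur2 at 0.09 ± 0.08, which did not pass, in the authors' deposited table. L1MdMus_I was also positive, and the authors' deposited table had it at 0.23 ± 0.07 (adjusted p 0.00547). Among negative rows, the authors' deposited table put L1MdFanc_I at -0.49 ± 0.07 (1.40-fold, adjusted p 3.13e-11), whereas L1MdFanc_II stood at 0.01 ± 0.07 (adjusted p 0.928). Of the 5 F rows 2 were called, both negative: the authors' deposited table had L1MdF_I at -0.23 ± 0.08 (adjusted p 0.0187) and L1MdF_II at -0.31 ± 0.07 (adjusted p 1.31e-04). The rest of the family did not pass, and the authors' deposited table gives 0.07 ± 0.09 for L1MdF_III, -0.08 ± 0.07 for L1MdF_IV and 0.13 ± 0.09 for L1MdF_V. None of the V rows passed, although L1MdV_III had an unadjusted p under 0.05, and L1MdV_I stood at 0.07 ± 0.06 in the authors' deposited table. L1MdN_I, which the authors' deposited table gives as 0.16 ± 0.08, did not pass either (adjusted p 0.119).

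In NPCs only L1MdFanc_I passed, of 30 young L1 rows, and L1MdV_III was the other row with an unadjusted p under 0.05. Of all 1249 repeats tested there 11.8% passed, 4.96% on the positive and 6.81% on the negative side. An unadjusted p under 0.05 was found for 257 of the 1249. With a base mean of 11836, L1MdFanc_I stood in the authors' deposited table at -1.29 ± 0.16, so that the groups differed 2.45-fold (adjusted p 2.34e-13). Its 95% interval ran from -1.61 to -0.97, and it ranked 14th of the 1249 tested rows by its Wald statistic. The authors' deposited table had L1MdFanc_II at -0.34 ± 0.18 (adjusted p 0.290) and L1MdV_III at -0.36 ± 0.17 (adjusted p 0.179).

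The precision in NPCs was lower than in the other tables. The SE of the 30 rows had a median of 0.28 in NPCs, 0.07 in ESCs and 0.08 in macrophages, so that a value of the size called in those cells was not detectable for most rows in NPCs. The abundant L1MdTf_III, at -0.31 ± 0.32 in the authors' deposited table, had a 95% interval from -0.93 to 0.31. L1MdTf_I at 0.12 ± 0.36 had one from -0.59 to 0.83, and L1MdA_I at -0.06 ± 0.30 one from -0.64 to 0.52, with values from the authors' deposited table. For the other members numbered I, the authors' deposited table gives -0.25 ± 0.23 for L1MdGf_I, 0.33 ± 0.31 for L1MdF_I, -0.18 ± 0.21 for L1MdV_I, -0.09 ± 0.29 for L1MdN_I and 0.22 ± 0.24 for L1MdMus_I. Of the 30 rows 21 were below 0, with a median of -0.09 beside 0.0009 over all tested rows. The mean weighted by base mean was -0.30, beside -0.06 over all tested rows. L1MdTf_III, which did not pass, and L1MdFanc_I carried 40.7% and 9.30% of the weight in the young L1 mean. L1_Mus3, with base means of 59.8, 3.30 and 9.38 in ESCs, macrophages and NPCs in the authors' deposited table, passed in none of them.

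Differences between cell types were tested on the assumption that all tables have the same numerator, which is not stated. Each difference of log2 fold changes was divided by its SE (normal test, two-sided), and p-values were adjusted by Benjamini-Hochberg over all repeats tested in both tables. Between ESCs and macrophages 10 of the 30 rows differed, against 23.7% of all 1124 repeats compared. The ESC value minus the macrophage value was -0.83 ± 0.12 on the log2 scale for L1_Mur1 (adjusted p 2.57e-10) and -0.44 ± 0.10 for L1_Mur3 (adjusted p 2.46e-04). The Tf rows numbered I and II were negative in ESCs and above 0 in macrophages: L1MdTf_I differed by -0.55 ± 0.14 (adjusted p 6.46e-04) and L1MdTf_II by -0.36 ± 0.13 (adjusted p 0.0262). L1MdF_I was positive in ESCs and negative in macrophages, with a difference of 0.44 ± 0.11 (adjusted p 4.43e-04). L1MdN_I, L1MdFanc_II and L1MdV_I had differences of -0.43 ± 0.10, -0.37 ± 0.10 and -0.28 ± 0.09, with adjusted p of 4.32e-04, 0.00126 and 0.0107. L1MdA_VII and L1MdF_II both differed by 0.27, with SE of 0.09 and 0.10 and adjusted p of 0.0211 and 0.0389.

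With the sign of the macrophage table turned, 9 rows differed, against 27.9% of all repeats compared, of which 4 were among these 10: L1_Mur1, L1_Mur3, L1MdF_II and L1MdFanc_II. For these rows the 2 tables differed under either orientation at 0.05. As deposited, the difference of L1MdF_II did not pass at 0.01 (adjusted p 0.0389). It did not pass at 0.05 after centring on the median of tested rows (adjusted p 0.0561). The other 6 differences hold only if the sides mean the same group in both tables. L1MdA_I and L1MdA_II were above 0 in both tables and passed in macrophages only. As deposited they did not differ between the tables, at -0.18 ± 0.13 (95% interval -0.43 to 0.06) and -0.22 ± 0.14 (95% interval -0.49 to 0.05).

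L1MdFanc_I was the row that set NPCs apart. Its log2 fold change was farther from 0 in NPCs than in ESCs by 0.75 ± 0.18 (adjusted p 5.37e-04) and than in macrophages by 0.80 ± 0.18 (adjusted p 1.88e-04). Between ESCs and macrophages it differed by -0.06 ± 0.10, with a 95% interval from -0.25 to 0.14. It was the only one of the 30 rows to differ in either comparison with NPCs, against 12.6% of all 1126 repeats compared with ESCs and 12.4% of 1222 compared with macrophages, and the only one called in all 3 tables, as were 2.94% of the 1121 repeats tested in all 3. The median SE of these differences was 0.29 in each comparison with NPCs, against 0.11 between ESCs and macrophages. With the sign of the NPC table turned, 3 rows differed from ESCs (16.2% of all repeats) and 2 from macrophages (19.9%), L1MdFanc_I among them in both.

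**Figure D3:**
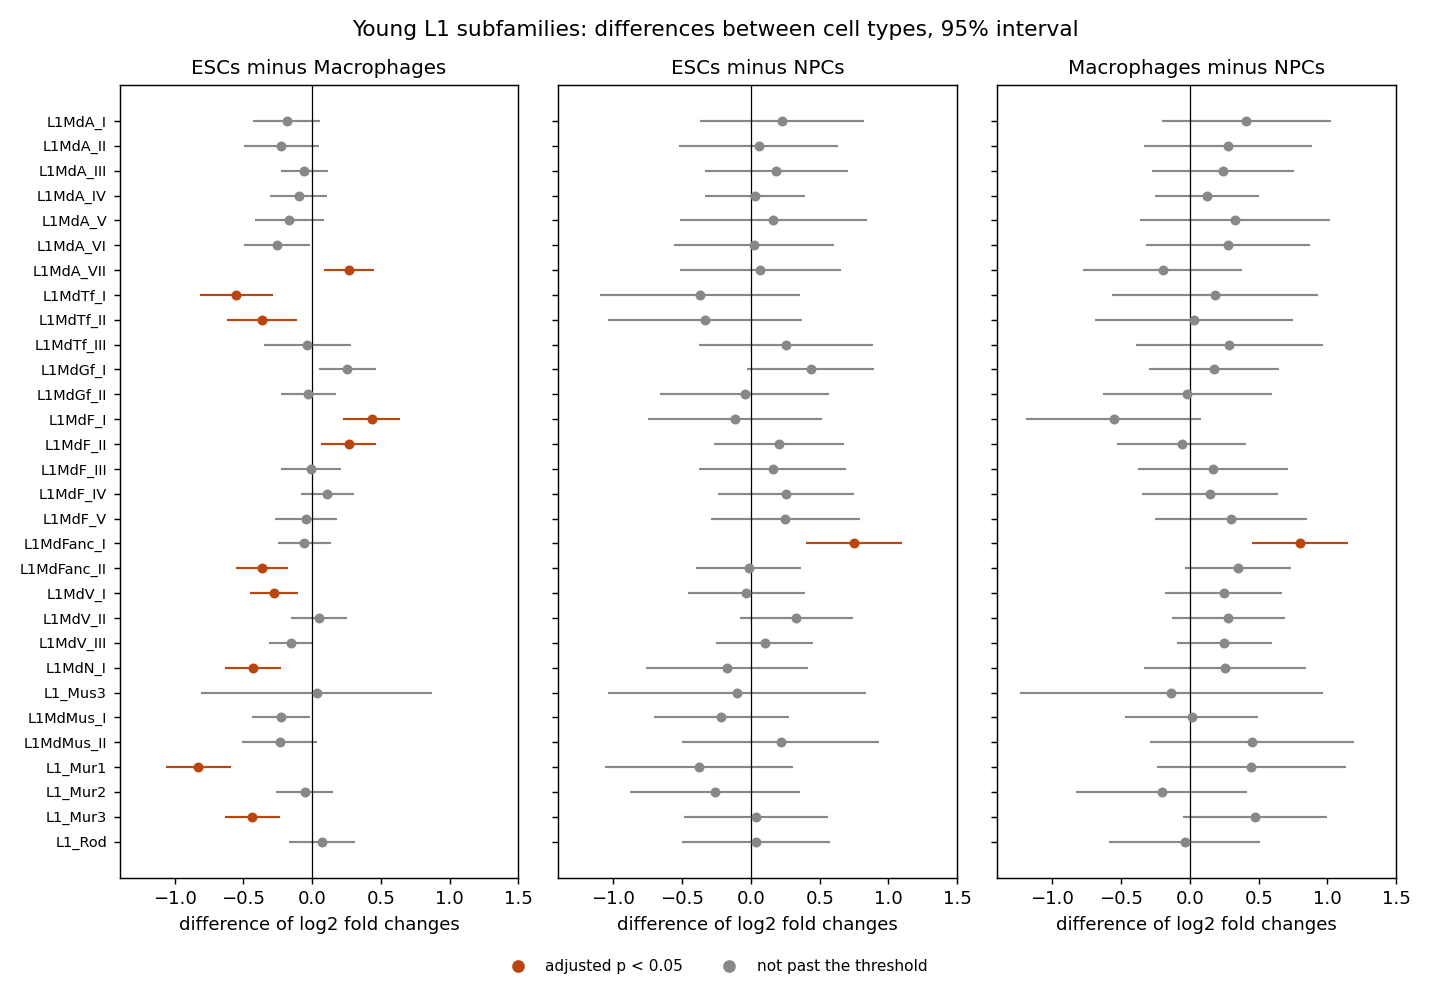
Difference of the log2 fold changes between cell types for each young L1 subfamily (x axis, first cell type minus the second), with bars for the 95% interval. Orange points passed an adjusted p of 0.05: 10 rows between ESCs and macrophages, and L1MdFanc_I alone in each comparison with NPCs, at 0.75 and 0.80.

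Over the 3 tables, 17 of the 30 rows (56.7%) were called in at least 1 table and 13 in none, where 46.8% of all 1121 repeats tested in each table were called in at least 1. The rows called in both ESCs and macrophages were 3 of 30 (10%), L1MdFanc_I, L1MdTf_I and L1MdF_I, beside 9.43% of 1124 repeats, so this count was close to that of all repeats. As deposited, L1MdFanc_I had the same sign in both of these tables and L1MdTf_I and L1MdF_I opposite signs. If the tables were oriented differently this would be the other way round.

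The older L1 rows, the remaining members of the same class, had calls in 15 of 116 tested rows in ESCs (12.9%), 35 of 118 in macrophages (29.7%) and 7 of 118 in NPCs (5.93%). The young rows had 30%, 36.7% and 3.33% in the same order, and all tested repeats 22.2%, 25.8% and 11.8%. The tests did not have the same precision: in ESCs the median SE was 0.07 for young and 0.10 for older L1 rows, at median base means of 11090 and 725. In macrophages it was 0.08 and 0.10, and in NPCs the young rows had the larger one, 0.28 against 0.23. The older rows in macrophages had 29 positive and 6 negative calls. Their median log2 fold changes were 0.02 (ESCs), 0.05 (macrophages) and -0.0020 (NPCs).

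For B1 and B2 elements, which depend on the L1 machinery to move, all calls in ESCs were negative. Of 16 B1 rows 0 were positive and 2 negative. Of 5 rows of the class SINE/B2 0 were positive and 3 negative, and these 3 were B2_Mm1a, B2_Mm1t and B2_Mm2. Of all repeats tested in ESCs 22.2% passed. The authors' deposited table had B2_Mm1a at -1.17 ± 0.21 and B2_Mm1t at -1.16 ± 0.19. B2_Mm2 lay at -0.45 ± 0.09 and B1_Mm at -0.24 ± 0.07 in the authors' deposited table, the latter with an adjusted p of 0.00620. In macrophages 1 of 16 B1 rows was negative and no row of the class SINE/B2 passed, where 25.8% of all repeats did. B2_Mm1a lay there at -0.32 ± 0.17 in the authors' deposited table. In NPCs none passed, with B2_Mm1a at -0.78 ± 0.32 and B1_Mm at -0.06 ± 0.17 in the authors' deposited table. The number of rows of the class SINE/B2 with an unadjusted p under 0.05 was 1 in macrophages and 2 in NPCs. The row in macrophages was not B2_Mm1a, B2_Mm1t or B2_Mm2. The number of B1 rows was 4 and 0, and that of all repeats 436 of 1255 and 257 of 1249.

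**Figure D4:**
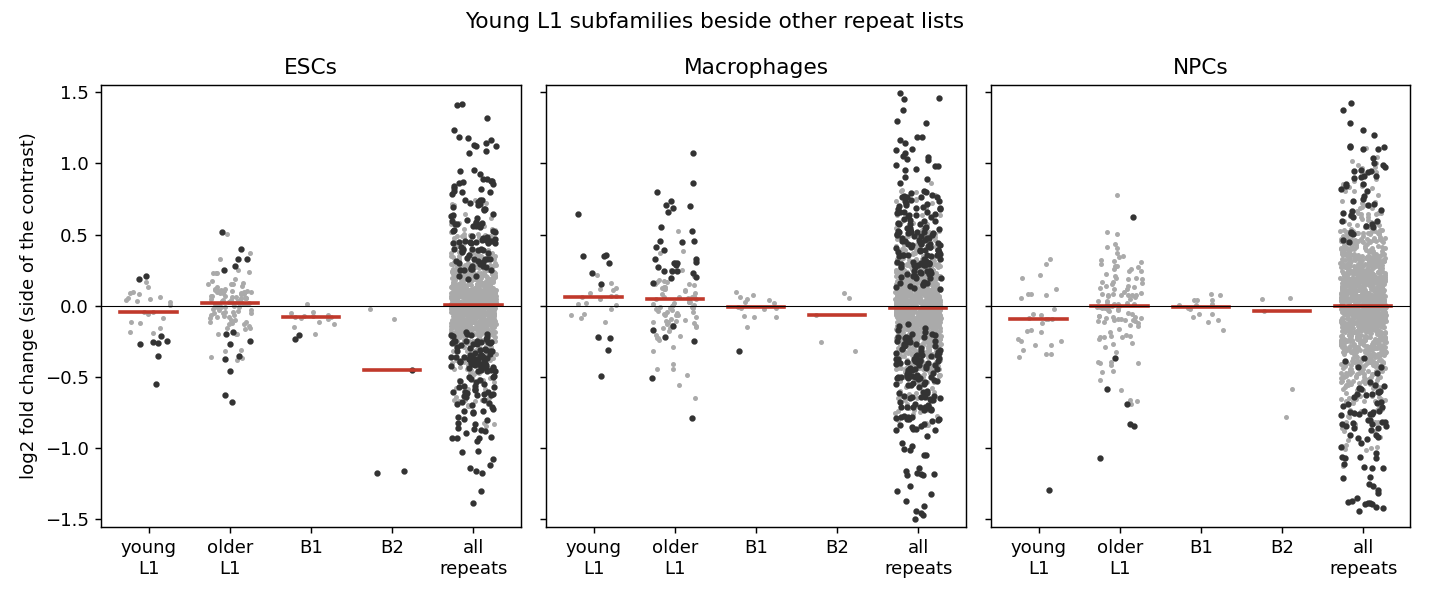
Log2 fold change (y axis, side of the contrast) of each tested row of the young L1, older L1, B1 and B2 (class SINE/B2) lists and of all repeats in ESCs, macrophages and NPCs. Dark points passed an adjusted p of 0.05, grey points did not, and red lines are medians over all tested rows of a list; 14, 16 and 25 rows beyond 1.5 on either side, none of them young L1, lie outside the axis.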

How the data were processed

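Poly(A) RNA of 18 libraries was sequenced paired-end from stranded libraries, per the labels' protocols. The submitters' processing notes name mm10, TopHat2 2.0.13, Bowtie2, Trim Galore, deepTools, featureCounts and DESeq2, without roles. Per the file headers, the deposited base mean is a signal, the log2 fold change and its SE are log2 values, the Wald statistic is a score, and each row has a p-value and an adjusted p-value by the authors. Recomputing the Benjamini-Hochberg adjustment gave the deposited adjusted p within a relative difference of 1e-06 in all tested rows. Neither the depth of a library nor the numerator of the contrast is given in the sources used here. Rows with a base mean under 1 had absolute log2 fold changes of at most 0.25, 0.42 and 0.37 in ESCs, macrophages and NPCs. The largest SE of any tested row was 0.34, 0.37 and 0.43 in the same order. Low rows, and more abundant rows with a large SE, may thus have been drawn towards 0. The median SE of the 30 rows was largest in NPCs, at 0.28. This limit therefore bears most on the NPC values, intervals and differences, and it was not tested. With tables of comparisons in place of counts, the authors' adjusted p under 0.05 was used, and no count model was run. The labels do not say whether replicates came from separate cultures or animals, and the spread behind the p-values may thus be technical.

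Differences, 95% intervals (normal, from the SE) and shares were computed with Python 3.11.15, pandas 2.3.3 and scipy 1.17.1. Named in a cell type were rows past the threshold, members numbered I and the 3 of largest base mean; other members are given for context. The members and lists were chosen with earlier results of these data known. Alternatives were adjusted p thresholds of 0.01 and 0.1, adjustment over all rows with a p, a base mean of at least 50, centring, weighting by base mean and turning the sign of a table.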

Additional observations from a re-analysis of the deposited data

Results flagged for a closer look

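The differences between cell types that passed an adjusted p of 0.05 were singled out because the same contrast gave unlike values in 2 cell types, by a test of the difference itself that takes the tables as oriented alike. Between ESCs and macrophages (ESC value minus macrophage value, log2) these were L1_Mur1 at -0.83, L1MdTf_I at -0.55, L1_Mur3 at -0.44, L1MdN_I at -0.43, L1MdFanc_II at -0.37, L1MdTf_II at -0.36 and L1MdV_I at -0.28. On the other side were L1MdF_I at 0.44, L1MdA_VII at 0.27 and L1MdF_II at 0.27. L1MdFanc_I differed by 0.75 between ESCs and NPCs and by 0.80 between macrophages and NPCs. Dose and, for macrophages, strain change with the cell type and cannot be told apart from it.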

How the results depend on the processing

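The counts of young L1 rows past the threshold stayed within 1.5 times of 9 in ESCs and 1 in NPCs under all alternatives run. In macrophages 7 rows passed at 0.01 (18.9% of all repeats did) in place of 11 at 0.05, without L1MdA_II, L1MdA_III, L1MdTf_I and L1MdF_I. The other alternatives gave 11 or 12, with 12 at 0.1, where 31.5% of all repeats passed. Limited to base means of 50 or more, 11 of 29 rows passed in macrophages, beside 37.7% of all repeats so limited. By that measure the young L1 count in macrophages was close to that of all repeats. In ESCs L1MdF_I and L1MdGf_I did not pass at 0.01, which left 0 positive and 7 negative rows (16.3% of all repeats passed). When tests in ESCs were limited to base means of 50 or more, L1MdA_I passed with an adjusted p of 0.0443. With that limit 10 of 30 rows passed in ESCs, beside 26.9% of all repeats. Between ESCs and macrophages 6 rows differed at 0.01 in place of 10, against 16.3% of all repeats compared. Limited to base means of 50 or more in both, 11 of 29 rows differed, against 30.6% of all repeats. L1MdF_II lost its call with centring (adjusted p 0.0561). With the sign of the NPC table turned, 3 rows differed from ESCs and 2 from macrophages, in place of 1 each. With the sign of the second table turned, the difference between ESCs and macrophages became 0.46 for L1_Mur1, 0.27 for L1_Mur3, -0.17 for L1MdA_VII, -0.015 for L1MdF_I, -0.35 for L1MdF_II and 0.054 for L1MdTf_I, and that of L1MdFanc_I became -1.84 between ESCs and NPCs and -1.78 between macrophages and NPCs; turning a sign sets these by construction. L1MdMus_I in ESCs moved to -2.79e-05 with centring. Weighting by base mean took the middle value of the 30 rows from -0.04 to -0.11 in ESCs, from 0.06 to -0.0079 in macrophages, where the sign changed, and from -0.09 to -0.30 in NPCs. No paired analysis was possible because the tables hold no values per library, and leaving out each replicate was not run for the same reason.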

Other observations

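Across the 30 young L1 rows, the log2 fold changes of ESCs and NPCs had a Pearson r of 0.54 and a Spearman rho of 0.36, and those of macrophages and NPCs 0.53 and 0.46. Without L1MdFanc_I, Pearson r was 0.28 and 0.33 and Spearman rho 0.29 and 0.40 over the remaining 29 rows. Between ESCs and macrophages Pearson r was 0.17 and Spearman rho 0.08 over 30 rows, and -0.08 and -0.01 over 29. These are descriptions across subfamilies, which can share reads and are not independent replicates, and they take the tables as oriented alike.

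LINE rows of classes other than L1 had 3 of 36 tested rows past the threshold in ESCs (8.33%). In macrophages 10 of 42 passed (23.8%) and in NPCs 5 of 42 (11.9%). Of all tested repeats 22.2%, 25.8% and 11.8% passed in the same order. The counts in macrophages and NPCs were thus close to those of all repeats. In NPCs 1 of the 5 calls was positive and 4 negative. The 42 rows had a median of -0.13 there, beside -0.09 for the young L1 rows.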
